A study of Caenorhabditis elegans with 7 samples.

Results

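The neuropeptide precursor genes flp-15 and nlp-13 of Caenorhabditis elegans were examined in sorted DD motor neurons and in all cells of first-stage larvae. Their members were the probe sets that the authors' deposited table of genes higher in DD neurons names flp-15 (3 probe sets) or nlp-13 (1 probe set), which made 4 of the 22625 probe sets on the array. That table names 201 genes on 222 probe sets, and it lists 236 probe sets with values, all of them higher in DD neurons. The members were therefore chosen by the same difference between DD neurons and all cells that is described here. Their differences are given as a description, without a p-value, and no statement rests on their direction.

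Neuropeptides are made as larger precursors that are cut at basic residues inside the secretory pathway, trimmed, often amidated, and stored in dense core vesicles apart from the small vesicles that hold classical transmitters. In C. elegans the convertase EGL-3 and the carboxypeptidase EGL-21 carry out much of the cutting and trimming, and UNC-31 (CAPS) promotes release of the vesicles. The flp genes encode FMRFamide-related peptides, which end in arginine and amidated phenylalanine, and the nlp genes encode peptides of other families, mostly acting on G protein-coupled receptors. The DD neurons release GABA onto body muscle, and neurons in general can release peptides beside such a classical transmitter.

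Expression was measured on Affymetrix arrays of 4 samples of DD neurons and 3 samples of all cells. The DD samples came from strain CZ8332, which carries the integrated transgene juIs223 on chromosome IV, with mCherry under the ttr-39 promoter and GFP under the ttx-3 promoter. The series' design text says that they were sorted for mCherry, but a label of the DD samples names GFP, and mCherry is taken here. The all-cell samples came from N2, the wild-type strain. Both groups were L1 larvae hatched overnight in M9 buffer at 20 °C without food, and in both groups 5 to 10 ng of total RNA was amplified before labelling. A series-wide limit is that the sort, the strain and the cell type changed together, so they cannot be told apart. Dissociation of the all-cell samples is not given in the sources used here. Among the reporters, the ttr-39 promoter marks D-type neurons, of which DD are the class present at hatching, while ttx-3 is active in the AIY interneuron. The labels do not say whether replicates came from separate cultures, so the spread between arrays may be technical.

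The DD label was checked against genes that define D-type GABA neurons. Of 11 such genes, 7 could be named, and their log2 differences ran from 1.51 to 3.48 with a median of 2.92. By limma's moderated test, 6 of the 7 passed at a Benjamini-Hochberg adjusted p under 0.05, against 0.191% of the 22548 probe sets tested that passed as higher in DD neurons. Without DD replicate 1, 4 of the 7 passed, against 0.0266% of all probe sets called higher, and with a replicate block (the replicate number as a term) 0 of 7 passed, against 0.00887%. DD replicate 4 has no all-cell array of the same number, so the block takes it out of the difference. The block also leaves fewer residual degrees of freedom, so fewer calls under it do not show an effect of the replicate number. These genes were named only because the authors listed them as higher, so that count is not independent evidence. In addition, the promoter of ttr-39, 1 of the 7, drives the mCherry taken here as the sorted reporter, so that gene is no separate check. Of 77 markers of AIY, other neurons, muscle, pharynx, intestine, epidermis, germline, coelomocytes and glia, 5 could be named and none of these marks AIY or another neuron class. Their differences ran from 1.03 to 1.86, and 1 of the 5, the pharynx list's pqn-44 (now tent-5) at 1.23 ± 0.18 (SE), passed the same test, though not with any 1 array left out. Their mean level was 7.61 to 8.08 on the DD arrays and 6.43 to 6.66 on the all-cell arrays. These values use 1 probe set per gene. The body muscle gene ttn-1, at 1.18 in that range, had other probe sets at 2.11 ± 0.55 (SE) and 1.94 ± 0.51 (SE). Both were larger than the members' differences, and neither passed the test. As with the identity genes, a marker could be named only if the authors listed it as higher. The direction of the 5 was thus fixed in advance, and nothing is read from the markers that could not be named. The part of other cells in the values of flp-15 and nlp-13 was not tested.

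The gene flp-15 (sequence name ZK525.1) encodes FMRFamide-related peptides, which activate the receptor NPR-3 when it is expressed in cultured cells. RefSeq, in its gene table of the assembly WBcel235, holds 1 transcript for it, on chromosome III. Its probe set with the highest mean over the 7 arrays, 171849_x_at, read 12.29, 11.56, 11.30 and 11.50 on DD replicates 1 to 4 (RMA values, log2). On all-cell replicates 1 to 3 it read 10.64, 10.52 and 10.15. Every DD array thus lay above every all-cell array, and the lowest DD array exceeded the highest all-cell array by 0.66. The mean was 11.66 ± 0.43 (SD, n = 4) across the DD arrays, against 10.44 ± 0.26 (SD, n = 3) across those of all cells, which made a log2 difference of 1.23 ± 0.26 (SE) or 2.34-fold.

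The other 2 flp-15 probe sets gave the same order of groups. Probe set 172214_x_at read 12.30, 11.53, 11.23 and 11.49 on the DD arrays and 10.64, 10.59 and 9.97 on the all-cell arrays. Its difference was 1.24 ± 0.29 (SE), or 2.35-fold. Probe set 188030_s_at read 12.02, 11.53, 11.14 and 11.38 on the DD arrays and 10.40, 10.44 and 9.77 on the all-cell arrays, which gave 1.31 ± 0.26 (SE), or 2.49-fold. On a single array the 3 probe sets spanned 0.031 to 0.380 (log2), and the spread was widest on all-cell replicate 3. The differences of the 3 probe sets thus lay closer together than the SE of any of them. On Affymetrix arrays the endings _x_at and _s_at mark probe sets whose probes can match more than 1 transcript, so the values of flp-15 are uncertain to that extent, and probe sets of 1 gene on the same arrays are not replicates.

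The gene nlp-13 (sequence name E03D2.1) encodes a precursor of MSFamide-type peptides, and the annotation in the authors' deposited table places its expression in pharyngeal neurons among other cells. RefSeq holds 1 transcript for it, on chromosome V. Its probe set 188920_at has the ending of a probe set designed for 1 transcript. It read 11.09, 10.43, 9.89 and 10.67 on DD replicates 1 to 4 and 9.58, 9.45 and 9.28 on all-cell replicates 1 to 3. The groups did not overlap, but the lowest DD array, replicate 3, stood only 0.31 above the highest all-cell array. The mean was 10.52 ± 0.50 (SD, n = 4) across the DD arrays, against 9.44 ± 0.15 (SD, n = 3) across those of all cells, which made a log2 difference of 1.09 ± 0.28 (SE) or 2.12-fold. Without DD replicate 1 this difference was 0.90 ± 0.23 (SE), which is under 2-fold, while the 3 flp-15 probe sets then stood at 1.01 to 1.15. By group medians in place of means the order was reversed. The difference of nlp-13 was then 1.10, and the flp-15 probe sets stood at 0.92 to 1.05, with 172214_x_at under 2-fold.

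**Figure D1:**
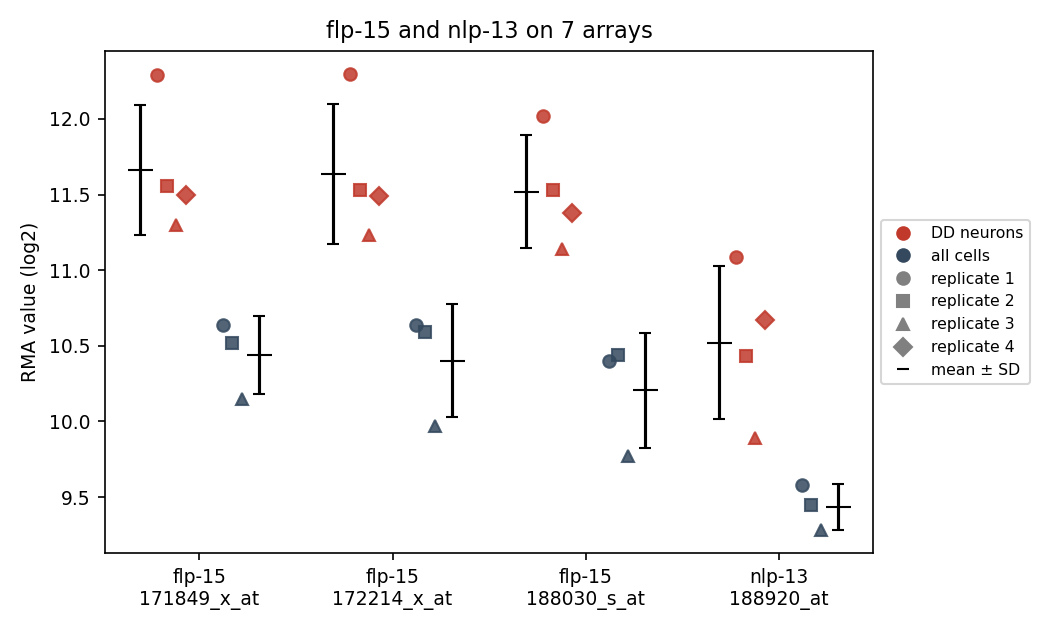
RMA values (log2, vertical axis) of the 3 flp-15 probe sets and the nlp-13 probe set on each array, with red points for DD neurons, dark points for all cells, 1 symbol per replicate, and black bars for mean ± SD. All DD points lie above all all-cell points of the same probe set, with the narrowest gap, 0.31, for nlp-13, and replicate 1 is the highest DD point in each.

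Both genes were read well above the middle of the array in all cells too. The array medians lay between 5.21 and 5.38, and the 90th percentiles between 8.68 and 8.96, so every value of both genes exceeded the 90th percentile of its array. Neither group mean of either gene was therefore near the dim end of the scale. In samples of many cells, fewer cells of a type and less RNA per cell cannot be told apart, so the all-cell level does not say which cells held the transcripts.

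All 4 member probe sets had groups that did not overlap, as did 6.98% of the 22548 tested probe sets in that direction and 6.64% in the opposite one. All 4 were at least 2-fold higher, as were 1.55% of the tested probe sets. The table holds probe sets of at least 2-fold, and 222 of its 236 listed probe sets had groups that did not overlap. Nothing is therefore read from these counts. By size of difference among the tested probe sets, 188030_s_at of flp-15 ranked 127, 172214_x_at ranked 161, 171849_x_at ranked 167 and 188920_at of nlp-13 ranked 256. The listed probe sets had a median difference of 1.24, close to the flp-15 values, and 49 of the 236 had a smaller difference than nlp-13. The smallest difference on the list was 1.0005, and the largest under 2-fold among the tested probe sets was 0.9996.

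The differences depend on the scale on which arrays are compared. Over all tested probe sets the median difference was 0.06, and relative to it flp-15 stood at 1.17 to 1.26 and nlp-13 at 1.03. The array medians were lower on the DD arrays (5.21 to 5.30) than on the all-cell arrays (5.33 to 5.38). With each array centred on its median, flp-15 read 1.31 to 1.39 and nlp-13 read 1.17. Renewed quantile normalization gave 1.31 to 1.38 and 1.15. The array's 77 control probe sets were higher on the DD arrays, by a median of 0.34. With each array centred on the mean of its controls, the median of all probe sets moved to -0.30, flp-15 read 0.87 to 0.96 and nlp-13 read 0.73, all under 2-fold. On that scale the flp-15 groups stayed apart, while the lowest DD array of nlp-13 was no longer above its highest all-cell array (the gap was -0.048).

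Compared with the genes that define D-type neurons, both peptide genes had smaller differences. The difference of flp-15 was 1.23 to 1.31 and that of nlp-13 was 1.09, against 2.51 to 3.48 for unc-25 (which makes GABA), unc-46 and unc-47 (vesicular GABA transport), unc-30 (the D-type homeodomain factor), oig-1 (an immunoglobulin-domain protein) and ttr-39. The homeobox gene alr-1, at 1.51 ± 0.29 (SE), was the identity gene nearest to them. The differences of flp-15 and nlp-13 were separated by 0.14 to 0.23, depending on the flp-15 probe set, which is less than the SE of either. Both genes were read on the same arrays, so those SEs are not the error of this gap. By group medians the order of the 2 genes was reversed, with nlp-13 at 1.10 and flp-15 at 0.92 to 1.05. Whether the 2 genes differ in size was not tested. All these genes were listed as higher on the same arrays, so the contrast in size was not tested.

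**Figure D2:**
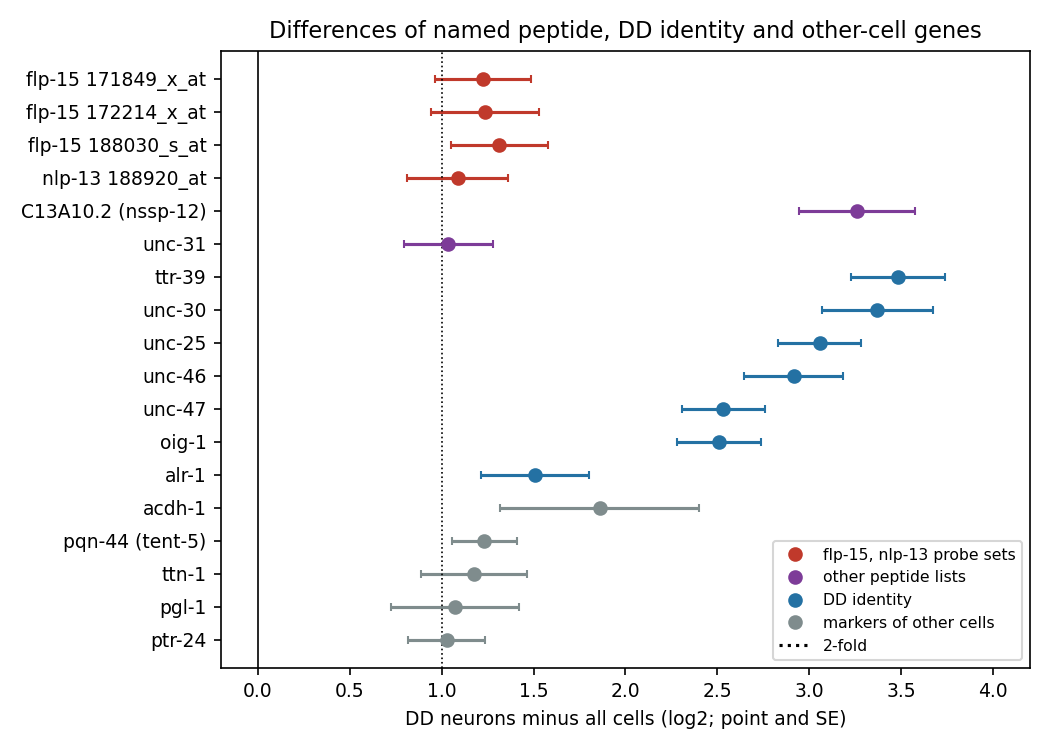
Log2 difference of DD neurons minus all cells (horizontal axis, point with SE from limma) for the member probe sets, the other named genes of the peptide lists, the named DD identity genes and the named markers of other cells, 1 probe set per gene outside the members. The member points lie between 1.09 and 1.31, close to the dotted 2-fold line, and 6 of the 7 identity genes lie at 2.51 or more.

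The rest of the neuropeptide pathway could be named only in small part. Of 34 flp genes, flp-15 was the only one named, and of 90 nlp and related genes nlp-13 and C13A10.2 were named. None of 40 insulin-like genes, 11 genes of precursor processing (egl-3 and egl-21 among them), 96 peptide receptor genes (npr-3 among them) or 6 genes of peptide breakdown could be named. The peptide gene flp-13, whose promoter is a common marker of DD neurons, was likewise without a named probe set, so its level was not analysed here. Of the 2 named genes other than the members, 1 passed limma's test over all probe sets as higher, none as lower, and 1 did not pass, with the same 0.191% (higher) and 0.226% (lower) of all probe sets called. The gene that passed, C13A10.2, did not pass without DD replicate 1, without all-cell replicate 2 or with a replicate block. The share called higher was then 0.0266%, 0.0577% and 0.00887% in that order. For the other gene, calls under these settings were not recorded. Both genes were on the authors' list, which fixed their direction.

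The gene that passed was C13A10.2, now nssp-12 in RefSeq, which was on the list by its symbol and is not established here as a peptide precursor. Its level was 10.90 ± 0.60 (SD, n = 4) across the DD arrays, against 7.64 ± 0.10 (SD, n = 3) across those of all cells, for a log2 difference of 3.26 ± 0.31 (SE). Among 21 genes of dense core vesicles, unc-31 was named. Its level was 6.86 ± 0.31 (SD, n = 4) across the DD arrays, against 5.82 ± 0.38 (SD, n = 3) across those of all cells, for a log2 difference of 1.04 ± 0.24 (SE), and its lowest DD array lay 0.25 above its highest all-cell array. The differences of unc-31 and nlp-13 were thus of like size, and C13A10.2 exceeded both. Those of unc-31 and nlp-13 lay near 1.0005, the smallest difference on the list. Only listed genes could be named, so nothing is read from this likeness in size.

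Within the groups, flp-15 and nlp-13 had high and low values on the same arrays. DD replicate 1 was the highest DD array for all 4 probe sets, 0.51 to 0.66 above the group mean for flp-15 and 0.57 above it for nlp-13. DD replicate 3 was the lowest for all 4, at -0.37 to -0.41 for flp-15 and -0.63 for nlp-13. All-cell replicate 3 was also the lowest of its group for all 4, at -0.29 to -0.44 for flp-15 and -0.16 for nlp-13. Over all tested probe sets, DD replicate 1 was the highest DD array in 35.4%, DD replicate 3 the lowest in 24.9%, and all-cell replicate 3 the lowest all-cell array in 36.3%. The genes differed on DD replicate 4, where nlp-13 lay 0.15 above its group mean and the flp-15 probe sets 0.14 to 0.16 below theirs.

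The D-type identity genes did not follow the same order of arrays. The mean deviation of the 7 named genes was 0.14 on DD replicate 1 and 0.22 on DD replicate 4, and it was lowest on DD replicate 2, at -0.28. On DD replicates 1 and 4 alike, 6 of the 7 genes were above their group mean. The gene alr-1 gave the lowest deviation on replicate 1 (-0.53) and the highest on replicate 4 (0.70). The order of replicates 1 and 4 thus leans on alr-1. On DD replicate 3, where both peptide genes were lowest, the identity genes averaged -0.08. In all cells their mean was lowest on replicate 1 (-0.20), where both peptide genes were above their group mean. Whether the share of DD neurons in each sorted sample bears on the peptide values was not tested.

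**Figure D3:**
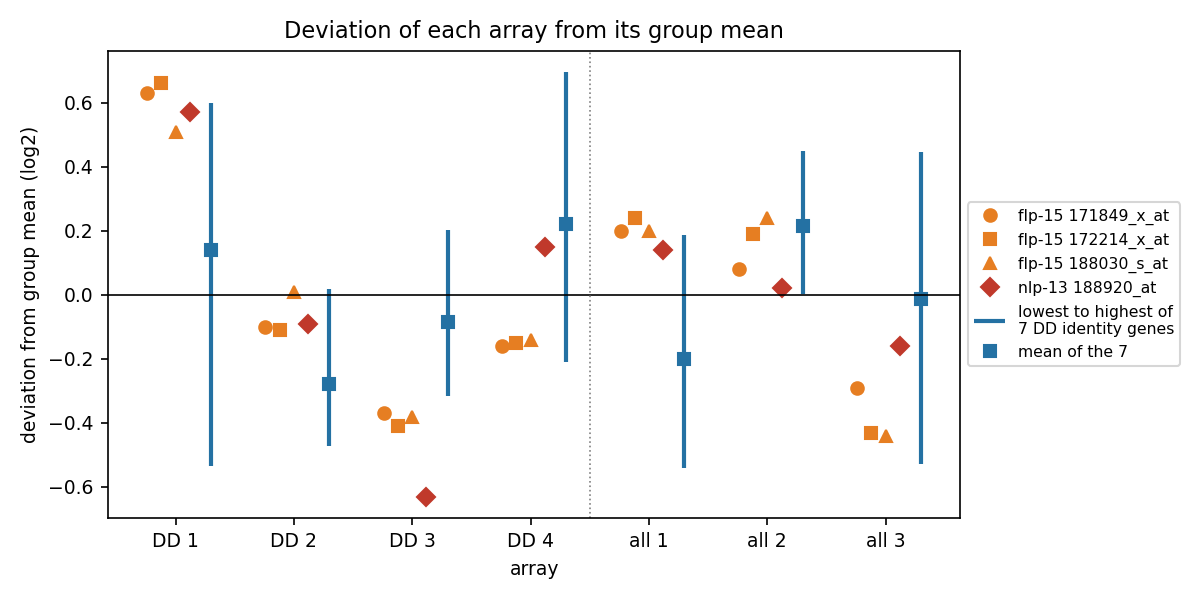
Deviation of each array from its group mean (log2, vertical axis) for the member probe sets (orange and red points), with blue squares for the mean and blue lines for the range of 7 DD identity genes, and DD and all-cell arrays on either side of the dotted line. The member points are highest on DD replicate 1 and lowest on DD replicate 3 within the DD arrays, while the identity mean is lowest on DD replicate 2.

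Likeness of profile was measured as the root mean square distance over the 7 arrays between log2 values, each profile taken minus its own mean. By this measure, among the 200 other named genes, nlp-13 was nearest to flp-15 (171849_x_at) and flp-15 nearest to nlp-13, at a distance of 0.18. The median distance of the named genes was 0.51 from flp-15 and 0.53 from nlp-13, and the flp-15 probe sets lay 0.072 to 0.111 from each other. By 172214_x_at nlp-13 was again first, at 0.21, and by 188030_s_at it ranked 4, at 0.24. The order among near neighbours was not stable. With 1 array left out, nlp-13 ranked from 1 to 5 by distance to flp-15, with rank 5 without DD replicate 1, and flp-15 ranked from 1 to 5 by distance to nlp-13, with rank 5 without all-cell replicate 1. All named genes were selected as higher in DD neurons, which makes their profiles alike in advance. By deviations from the group means alone, a measure added after the data were seen, each gene ranked 2 by distance to the other.

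Next to nlp-13, the named genes nearest to flp-15 by 171849_x_at were cdka-1, an activator of the kinase CDK-5, at 0.19, and fbxa-152, an F-box gene, at 0.20. By 172214_x_at the same genes followed nlp-13 in the opposite order, while by 188030_s_at the nearest were F53C3.5, B0365.1 and F59A3.12, at 0.21 to 0.23. Next to flp-15, those nearest to nlp-13 were dpy-23, a subunit of the clathrin adaptor AP2, at 0.19, and T24D5.2 at 0.21. The profile of cdka-1 read 9.15, 8.36, 8.24 and 8.50 on the DD arrays and 7.24, 7.37 and 7.42 on the all-cell arrays. DD replicate 1 was its highest DD array and DD replicate 3 its lowest, as for the members. Its all-cell arrays ran in the reverse order of those of 171849_x_at and nlp-13. The profile of dpy-23 read 9.59, 8.80, 8.39 and 9.44 on the DD arrays and 7.82, 8.26 and 7.84 on the all-cell arrays. Its second DD array was replicate 4, as for nlp-13, but its lowest all-cell array was replicate 1.

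**Figure D4:**
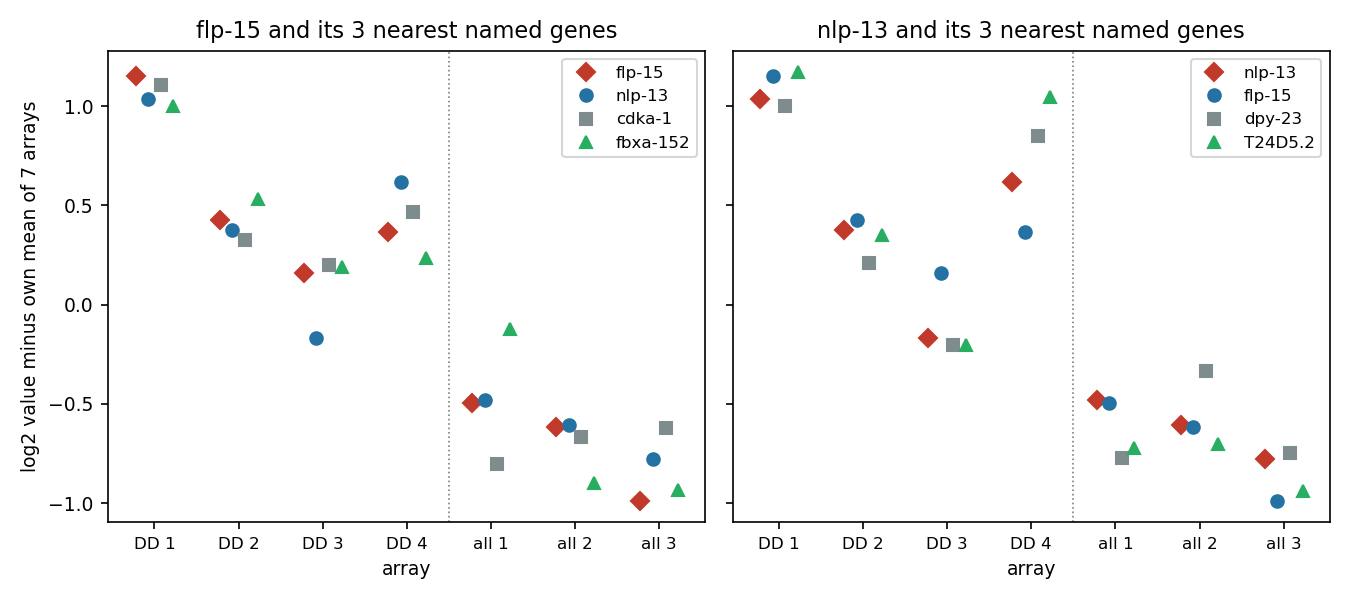
Log2 values minus each probe set's own mean over the 7 arrays (vertical axis) for flp-15 (171849_x_at, left) and nlp-13 (right), each with its 3 nearest named genes, by array. In both panels the DD replicate 1 points are highest, near 1, and the members' all-cell points lie below 0.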

How the data were processed

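Per the submitters' processing notes, the deposited log2 values are the authors' RMA output, a method that corrects background, normalizes between arrays and summarises probes. Its version is not given in the sources used here. A second deposited table from the authors gives, per the file headers, a score, a log2 difference, a linear fold and a q-value in percent. Only its gene and sequence names, its expression annotation for nlp-13 and the set of probe sets it lists were used. Its log2 differences, which deviated from the differences of group means by at most 6.7e-15, checked the matching of probe sets.

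After 77 array controls were left out, limma 3.58.1 (R 4.3.3, lmFit and eBayes, no covariates, two-sided) was run on 22548 probe sets and 7 arrays. It gave the SE of every difference, with 5 residual and 3.13 prior degrees of freedom. The fit was also run on simulated data, and the outcome is not given here. The number of arrays limits the precision. Gene lists, named by the deposited table or by RefSeq's newer symbols, used each gene's probe set with the highest mean. The named genes were the members, the named genes of the peptide lists and the 3 nearest named genes of each member. Other genes were given by count, range or as examples. Alternatives were each array left out, other centrings, renewed quantile normalization, a replicate block, group medians, a level filter and other eBayes settings. The members and lists were chosen with earlier results of these data known. Python 3.11.15, pandas 2.3.3 and numpy 2.4.6 were also used.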

Additional observations from a re-analysis of the deposited data

How the results depend on the processing

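The 50 alternative values of the flp-15 and nlp-13 differences ran from 0.73 to 1.44, each within the pooled SD between replicates of its main value. Their sign was set by the choice of members and is no sign of stability. With 1 array left out, 171849_x_at ranged from 1.02 to 1.35, 172214_x_at from 1.01 to 1.37, 188030_s_at from 1.10 to 1.44 and nlp-13 from 0.90 to 1.30. Deviations of same-numbered arrays correlated across probe sets at -0.0051, 0.070 and 0.086. Arrays of different numbers were not compared, so these values cannot settle whether the replicate numbers pair the arrays. With a replicate block the differences were 1.28, 1.28, 1.36 and 1.04 in that order, and limma's counts of called probe sets fell from 43 higher and 51 lower to 2 and 0 (1444 and 2075 at an unadjusted p under 0.05). These differences equal those without DD replicate 4, which the block takes out, so they are not a separate alternative among the 50. The members' SE was 0.20 to 0.24 with the block, against 0.26 to 0.29 in the main fit.

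The counts over all probe sets moved more than the members. With 1 array left out, limma called 6 to 23 higher and 0 to 39 lower, with 6 and 0 without DD replicate 1 (1211 and 1779 unadjusted), and the groups did not overlap in 2006 to 3238 higher and 1883 to 2785 lower probe sets, where fewer arrays make separation easier. The main counts were 1573 and 1497. Median centring gave 47 called higher and 28 lower and 4123 separated higher and 1060 lower. Centring on the array controls gave 40 called higher and 393 lower, 211 separated higher and 6134 lower, and 113 at least 2-fold higher in place of 349. Renewed quantile normalization gave 43 called higher and 33 lower. Among the 11274 probe sets above the median level, 65 were called higher and 93 lower, and 796 (7.06%, against 6.98% of all) were separated higher and 1179 lower.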

Other observations

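The tested probe set nearest in profile to nlp-13 had no gene name. It was 175784_at, which is on the deposited list and lay at a root mean square distance of 0.077 from nlp-13 and 0.17 from flp-15 (171849_x_at), nearer than any named gene to either. It read 8.39 ± 0.44 (SD, n = 4) across the DD arrays, against 7.24 ± 0.19 (SD, n = 3) across those of all cells, for a log2 difference of 1.15 ± 0.26 (SE), and was noticed after its values were seen. Of 22545 probe sets other than those of flp-15, 1, 2 and 5 were nearer than nlp-13 to 171849_x_at, 172214_x_at and 188030_s_at, and 175784_at was among them each time. Of 22547 probe sets other than 188920_at, 4 were nearer to nlp-13 than flp-15 was, none of them named. Both genes were listed as higher on these same arrays, which in advance sets them nearer to each other than to most probe sets. Nothing is read from these counts.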
